A study of Mus musculus with 18 samples.

Results

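The complement genes described here are 33 components, regulators and receptors of the complement system, chosen by symbol and all found among the 47729 genes of a mouse liver RNA-seq table. The labels describe 18 liver samples from mice of 3 genotypes (wt, Il22-/- and Il22bp-/-) that had ischemia-reperfusion injury or sham surgery, with 3 samples for each combination. Il22-/- mice lack the cytokine IL-22 and Il22bp-/- mice lack its soluble binding protein. No label used here gives the age, sex or strain of the mice, the time after surgery or how the alleles were made. Column headers carry IR or W and a running number, without genotype. The 9 IR columns were read as ischemia-reperfusion, and the 9 W columns as sham by elimination, because wild type would account for just 6 columns. That reading holds if every column belongs to the series, and each surgery group then mixes the genotypes. For the same reason the level of the deleted gene could not be checked against a label. The question addressed is how complement expression in the liver differs after ischemia-reperfusion. An effect of either knockout was not analysed.

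Complement is a cascade of plasma proteins that marks cells and microbes for removal. It starts from C1q bound to antibody or dying cells, from lectins bound to sugars, or from spontaneous turnover of C3, and all routes meet at the C3 and C5 convertases. Most of the plasma proteins are made by hepatocytes, whereas C1q, properdin and ficolin A come from macrophages, in liver mainly Kupffer cells. The split products C3a and C5a attract and activate leukocytes through their own receptors, and C5b with C6, C7, C8 and C9 forms the membrane attack complex.

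Promoters of 5 members are shown because the results turn on these genes: C3 and Vtn were among the transcripts that rose, Mbl2 fell the most of all members, and C6 and C9 separated the injured livers from each other. Each window runs from 250 bases before to 50 bases after the gene start, 5′ to 3′ on the gene's strand, from RefSeq on GRCm38.p6. The windows are chr17:57228087-57228386 (minus strand) for C3, chr11:78498870-78499169 (plus) for Vtn, chr19:30232678-30232977 (plus) for Mbl2, chr15:4726960-4727259 (plus) for C6 and chr15:6445096-6445395 (plus) for C9. Capitals mark matches on either strand to 4 motifs: TTCNNNGAA (STAT), TTNNGCAA (C/EBP), GGGNN followed by TTTCC (NF-kB) and TGTTTNC (forkhead).
C3: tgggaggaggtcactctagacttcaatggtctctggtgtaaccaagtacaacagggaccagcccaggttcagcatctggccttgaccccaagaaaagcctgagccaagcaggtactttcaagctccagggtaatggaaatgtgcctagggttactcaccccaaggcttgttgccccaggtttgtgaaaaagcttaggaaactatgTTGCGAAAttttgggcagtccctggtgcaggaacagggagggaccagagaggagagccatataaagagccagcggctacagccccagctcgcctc
Vtn: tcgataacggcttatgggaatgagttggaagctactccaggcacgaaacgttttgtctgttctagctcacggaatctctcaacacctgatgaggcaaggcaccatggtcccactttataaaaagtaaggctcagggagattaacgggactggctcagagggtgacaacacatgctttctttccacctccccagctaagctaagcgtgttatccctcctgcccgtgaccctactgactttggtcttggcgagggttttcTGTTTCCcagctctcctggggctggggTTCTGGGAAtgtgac
Mbl2: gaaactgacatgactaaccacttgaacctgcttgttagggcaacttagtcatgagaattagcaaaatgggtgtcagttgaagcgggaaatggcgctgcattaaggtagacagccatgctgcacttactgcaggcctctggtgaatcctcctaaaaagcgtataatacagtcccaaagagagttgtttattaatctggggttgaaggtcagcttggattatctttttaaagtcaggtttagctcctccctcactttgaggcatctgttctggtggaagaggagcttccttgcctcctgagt
C6: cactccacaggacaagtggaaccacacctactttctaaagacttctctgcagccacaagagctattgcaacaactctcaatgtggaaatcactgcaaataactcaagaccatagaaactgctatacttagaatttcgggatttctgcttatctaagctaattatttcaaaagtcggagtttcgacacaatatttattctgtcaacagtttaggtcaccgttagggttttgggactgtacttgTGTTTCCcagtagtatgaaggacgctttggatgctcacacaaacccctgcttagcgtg
C9: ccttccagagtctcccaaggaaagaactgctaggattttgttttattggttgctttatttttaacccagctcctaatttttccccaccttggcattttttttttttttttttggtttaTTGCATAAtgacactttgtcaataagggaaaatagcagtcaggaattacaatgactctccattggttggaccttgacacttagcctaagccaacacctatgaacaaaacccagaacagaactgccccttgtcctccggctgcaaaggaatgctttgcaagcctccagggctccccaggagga
The C3 window held a C/EBP match that began 45 bases before the gene start, and the C9 window held one that began 132 bases before it. The C6 window held a forkhead match 8 bases before the start, and the Vtn window held a forkhead and a STAT match after the start. No match to the 4 motifs was present in the Mbl2 window. The RefSeq table held 28 windows of 25 members. Counted per gene, with any of its windows, 5 members held the STAT motif, 5 the C/EBP motif, 1 the NF-kB motif and 8 the forkhead motif. Among all 32851 windows of this length the shares were 8.30%, 10.8%, 1.63% and 20.5%. These shares are per window and not per gene, so they are not a like-for-like base for the member counts. A match is a string of letters and not a measured binding site.

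The reads of sex-linked genes were examined in each library, since plasma levels of terminal complement components are known to differ between male and female mice. Xist, the RNA that coats the inactive X chromosome of females, lay between 1751 and 5335 normalized counts in all 9 sham libraries, and the sum of 4 Y-linked genes (Ddx3y, Eif2s3y, Kdm5d and Uty) was at most 2.07 there. The ischemia-reperfusion libraries were mixed. IR3, IR6 and IR9 had Xist between 2312 and 4305 and at most 1.84 Y-linked counts, like the sham libraries. IR1, IR2, IR4 and IR7 had 734 to 1034 Y-linked counts and at most 11.5 of Xist. IR5 and IR8 had both, with Xist at 542 and 964 and Y-linked sums of 745 and 444. Whether IR5 and IR8 each hold RNA of a single mouse is not known and was not tested. Surgery and these sex-linked reads therefore cannot be told apart over all 18 libraries, and fold changes for 9 against 9 libraries are therefore set beside those of IR3, IR6 and IR9 alone against the 9 sham libraries. The genotypes of those 3 libraries are unknown.

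Recovered read totals ran from 10176617 to 12763837 per library, and no pair of libraries within a group agreed to within sampling noise (lowest chi-square per gene 7.72). Albumin, the main hepatocyte product, made up 2.86% to 7.48% of the normalized total after ischemia-reperfusion and 12.9% to 15.9% in sham. All 12 hepatocyte markers passed the filter on low values. Of 12686 genes with a mean of at least 10 normalized counts, 9641 passed an adjusted p of 0.05 in limma, so that a call by itself was the usual outcome: 76.0% of all genes were called, 38.3% higher and 37.7% lower. With IR3, IR6 and IR9 alone, 68.4% were called, 34.1% higher and 34.2% lower. Of the calls over 9 against 9 libraries, 50.4% were higher; scaling all libraries to equal totals made this 61.7% and moved the median log2 fold change of all tested genes from 0.02 to 0.25. That shift applies to every value below, and members whose call depends on it are named.

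Of the 33 members, 32 passed the filter on low values and 22 of these were called, 7 higher and 15 lower. That share, 68.8%, was no larger than the 76.0% of all genes. The members' median log2 fold change was -0.17, against 0.02 over all tested genes. In the comparison of IR3, IR6 and IR9 with sham, again 22 members were called, 5 higher and 17 lower, with a median of -0.49 against 0.01. Called higher in both were C3, C4b, Vtn, Clu and C5ar1. The 15 called lower in both were C1qa, C1qb, C1qc, C1s1, C8g, Cfi, Cfp, Masp2, Mbl1, Mbl2, C4bp, Cd55, Fcna, Cd59a and Colec11. Scaling to equal totals added C1ra, Cfb, Masp1 and C5ar2 to the higher calls and removed C1s1, Masp2 and Mbl1 from the lower ones.

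**Figure D1:**
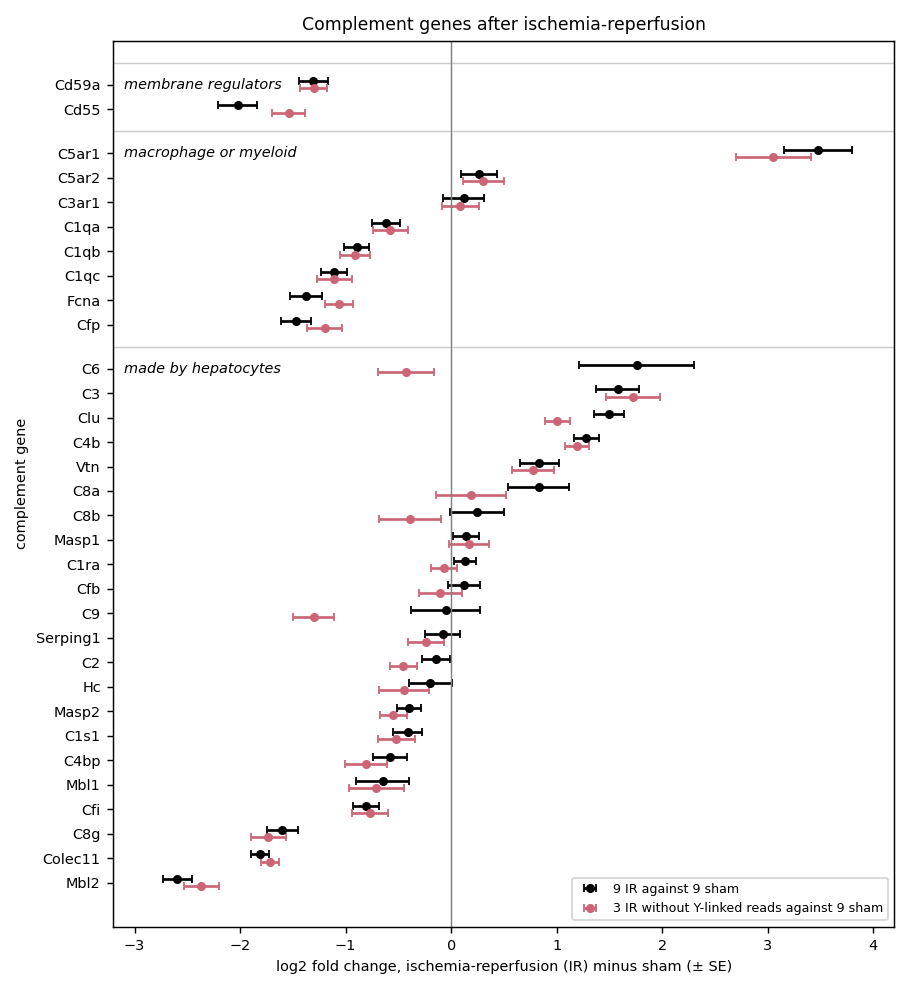
Log2 fold change (x axis) with its standard error for each of the 32 tested complement genes (y axis), for 9 ischemia-reperfusion against 9 sham libraries (black) and for the 3 ischemia-reperfusion libraries without Y-linked reads against the same 9 sham libraries (red). The estimates for most genes lie close together, whereas C6 moves from 1.76 to -0.43 and C9 from -0.05 to -1.30.

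Of the 22 members classed as made by hepatocytes, 6 were called higher, 8 lower and 8 not. That is 63.6% called, beside 76.0% of all genes (38.3% higher and 37.7% lower). The median of these 22 was -0.07 (0.03 by edgeR and 0.17 with equal totals). Among IR3, IR6 and IR9 against sham the counts were 4, 10 and 8, with a median of -0.44. That is again 63.6%, beside 68.4% of all genes. Of the 8 macrophage or myeloid members 1 was called higher and 5 lower in either comparison, or 75%, with medians of -0.76 and -0.74. These classes were assigned by gene, and the cells of origin were not measured. Fewer cells of a type and less RNA per cell cannot be told apart in whole liver. Per kilobase of exon, the hepatocyte members summed to 53568 to 118032 normalized counts after ischemia-reperfusion and 47854 to 66667 in sham. The macrophage members summed to 1584 to 2970 and 2878 to 5126, or a median of 2.28% and 5.68% of the level of all members. The ranges of these percentages overlapped.

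In sham liver the most abundant complement transcript per kilobase was Mbl2, with a median of 11577 normalized counts per kilobase, followed by Vtn at 11403 and C3 at 10697. The ranges of these 3 overlapped, from 6185 to 13912 in all, so their order is not resolved. C8g at 5000, Serping1 at 4954 and Cfi at 4510 came next, again with overlapping ranges. At the other end were C3ar1 at 13.5, C5ar2 at 5.82, C5ar1 at 5.31 and Cfd at 3.32 per kilobase. After ischemia-reperfusion C3 led with 31335, then Vtn with 22606 and Clu with 8627, and Mbl2 was the seventh with 1834. C3 alone made up 30.2% to 44.7% of the members' summed level per kilobase after ischemia-reperfusion and 11.7% to 17.7% in sham, while Mbl2 made up 1.30% to 5.79% and 17.1% to 19.8%. Both of these shares separated the groups with no overlap.

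The recognition molecules were mostly lower after ischemia-reperfusion. C1q, which starts the classical pathway, is assembled from chains encoded by C1qb, C1qc and C1qa, which lie in that order within 18.7 kb on the minus strand of chromosome 4 in GRCm38. C1qa (ENSMUSG00000036887, 136895917 to 136898803) had between 524 and 963 normalized counts after ischemia-reperfusion, with a median of 579, and between 731 and 1336 in sham, with a median of 921. Library IR8, the highest of its group, was the only one to enter the sham range. C1qa fell by 0.62 on the log2 scale (SE 0.13, adjusted p = 0.000257 by limma), and in IR3, IR6 and IR9 it fell by 0.58. C1qb (ENSMUSG00000036905, 136880129 to 136886187) had 460 to 866 counts against 877 to 1498 and fell by 0.90. C1qc (ENSMUSG00000036896, 136889804 to 136893065) had 508 to 886 counts against 1003 to 1831 and fell by 1.11, so for both chains every injured liver was below every sham liver. The log2 fold changes in IR3, IR6 and IR9 were -0.91 for C1qb and -1.11 for C1qc. Of the 32 tested members, 4 lay above and 9 below the sham range in all 9 injured livers. Such non-overlap occurred in 40.2% of all tested genes, 19.9% above and 20.3% below. In IR3, IR6 and IR9, 4 members lay above and 13 below all sham libraries, where 52.8% of all tested genes did not overlap, 26.0% above and 26.8% below.

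The C1q chains did not fall equally. The log2 ratio of C1qa to C1qc within a library was higher after ischemia-reperfusion by 0.49, with standard deviations of 0.10 and 0.08 over the 9 libraries of each group (exact two-sided permutation test, adjusted p = 0.000112 over 19 pairs of members; the raw p of 4.11e-05 is the smallest this test can give). The C1qa/C1qb ratio differed by 0.28 in the same direction (exact permutation test, adjusted p = 0.00262). In IR3, IR6 and IR9 these differences were 0.53 and 0.33 (exact permutation test, adjusted p = 0.00960 and 0.0144). C1qa thus fell least and C1qc most. With 3 libraries against 9, the smallest raw p of this exact permutation test is 0.00455, or 0.00960 once adjusted, here and below.

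Fcna (ENSMUSG00000026938, chromosome 2, 25624666 to 25628030), the macrophage lectin ficolin A, had 191 to 511 counts after ischemia-reperfusion, median 326, and 671 to 1157 in sham, median 913. The groups did not overlap, and Fcna fell by 1.38 (SE 0.15, adjusted p = 6.49e-08 by limma) or, in the 3 libraries without Y-linked reads, by 1.06. Colec11 (ENSMUSG00000036655, chromosome 12, 28594173 to 28623377) encodes collectin-11, a soluble lectin that binds sugars and works with the MASP proteases. Its counts were 179 to 302, median 236, against 727 to 918, median 804. The groups were well separated and narrow: Colec11 fell by 1.81 (SE 0.08, adjusted p = 4.03e-13 by limma), and its log2 fold change was -1.72 in IR3, IR6 and IR9.

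The mannose-binding lectins Mbl1 and Mbl2, both secreted by hepatocytes, differed strongly from each other. Mbl2 (ENSMUSG00000024863, chromosome 19, 30232942 to 30239687) had 1680 to 3517 counts, median 1998, after ischemia-reperfusion and 10256 to 15150, median 12608, in sham. Every injured liver was far below every sham liver: Mbl2 fell by 2.59 (SE 0.13, adjusted p = 1.60e-12 by limma), or 6.04-fold, and by 2.37 in the 3 libraries without Y-linked reads. Mbl1 (ENSMUSG00000037780, chromosome 14, 41151458 to 41159601) had 782 to 3319 counts, median 2152, against 2368 to 3480, median 2707. Its injured livers spread from below to within the sham range, and its log2 fold change of -0.65 (SE 0.25, adjusted p = 0.0223) was not called by edgeR or DESeq2 on the recovered reads (adjusted p = 0.0717 and 0.0582), nor by limma without IR5 and IR8 (-0.42, adjusted p = 0.101). In IR3, IR6 and IR9 it was -0.71 (adjusted p = 0.0268 by limma). The Mbl1/Mbl2 ratio rose by 1.94 on the log2 scale (exact permutation test, adjusted p = 0.000391), or by 1.66 in IR3, IR6 and IR9 (exact permutation test, adjusted p = 0.0308).

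Among the proteases that the recognition molecules carry, C1ra and C1s1 (the C1r and C1s enzymes of the C1 complex) lie side by side on chromosome 6. C1ra had 894 to 1547 counts after ischemia-reperfusion and 797 to 1261 in sham, and was not called (log2 fold change 0.13, SE 0.10, adjusted p = 0.272 by limma; -0.07 in IR3, IR6 and IR9, adjusted p = 0.652). C1s1 fell by 0.41 (adjusted p = 0.00964; -0.52 in IR3, IR6 and IR9), with overlapping ranges of 1237 to 2602 and 1776 to 3135. The C1ra/C1s1 ratio was higher by 0.54 after ischemia-reperfusion (exact permutation test, adjusted p = 0.000112), and by 0.45 in the 3 libraries without Y-linked reads (exact permutation test, adjusted p = 0.00960). Masp1, a lectin pathway protease, was not called in either comparison, at 510 to 699 against 309 to 721 counts. Masp2, which cleaves C4 and C2, fell by 0.40 (adjusted p = 0.00294; -0.55 in IR3, IR6 and IR9), with 923 to 1880 against 1598 to 2057 counts. Of its 3307 exon bases, 1817 are shared with Tardbp on the opposite strand, which is itself expressed, and whether counting used strand is not given in the sources used here, so reads of the 2 genes may be mixed.

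C3 and C4b were higher in every injured liver than in any sham liver. C3 (ENSMUSG00000024164, chromosome 17, 57203970 to 57228136, minus strand), on which all pathways converge, had 88628 to 230902 counts after ischemia-reperfusion, with a median of 161158, and 31810 to 60546 in sham, with a median of 55016. The groups did not overlap. C3 rose by 1.58 (SE 0.20, adjusted p = 6.20e-07 by limma), or 2.99-fold, and by 1.72 (SE 0.25, adjusted p = 2.56e-05) in IR3, IR6 and IR9. C4b (ENSMUSG00000073418, chromosome 17, 34728380 to 34743882), which encodes C4 of the classical and lectin convertase, had 8848 to 16953 counts, median 10937, against 3815 to 5104, median 4831. It rose by 1.28 (SE 0.12, adjusted p = 6.05e-09), and by 1.19 in the 3 libraries without Y-linked reads. Its near-identical neighbour C4a could share reads with it.

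C2 and Cfb, the catalytic subunits of the convertases, lie beside C4b: C2, Cfb, C4a and C4b span 170 kb of chromosome 17, and C4a and C4b were called higher over all 18 libraries whereas Cfb and C2 were not. Cfb (ENSMUSG00000090231, 34856374 to 34862518) had 333 to 625 counts, median 485, against 234 to 588, median 431. The ranges overlap, and Cfb was not called (log2 fold change 0.12, SE 0.15, adjusted p = 0.463 by limma); with equal totals it was (0.36, adjusted p = 0.0298), and in IR3, IR6 and IR9 it was not (-0.11, adjusted p = 0.660). C2 had 291 to 585 counts against 326 to 511 and was not called over 9 against 9 libraries, but fell by 0.45 (adjusted p = 0.00556) in IR3, IR6 and IR9. Most exon bases of Cfb, 2246 of 2825, and 1656 of 3872 in C2 are also annotated to the readthrough gene Gm20547, which is listed at 0 in every library. How reads in shared bases were assigned is not stated, so the levels of Cfb and C2 are uncertain. The Cfb/C2 ratio was the only one of the 19 pairs that was not called over all 18 libraries (difference 0.27, exact permutation test, adjusted p = 0.101). It was called without IR7 (0.33, exact permutation test, adjusted p = 0.0425) or without W3 (0.34, adjusted p = 0.0312 by the same exact test).

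**Figure D2:**
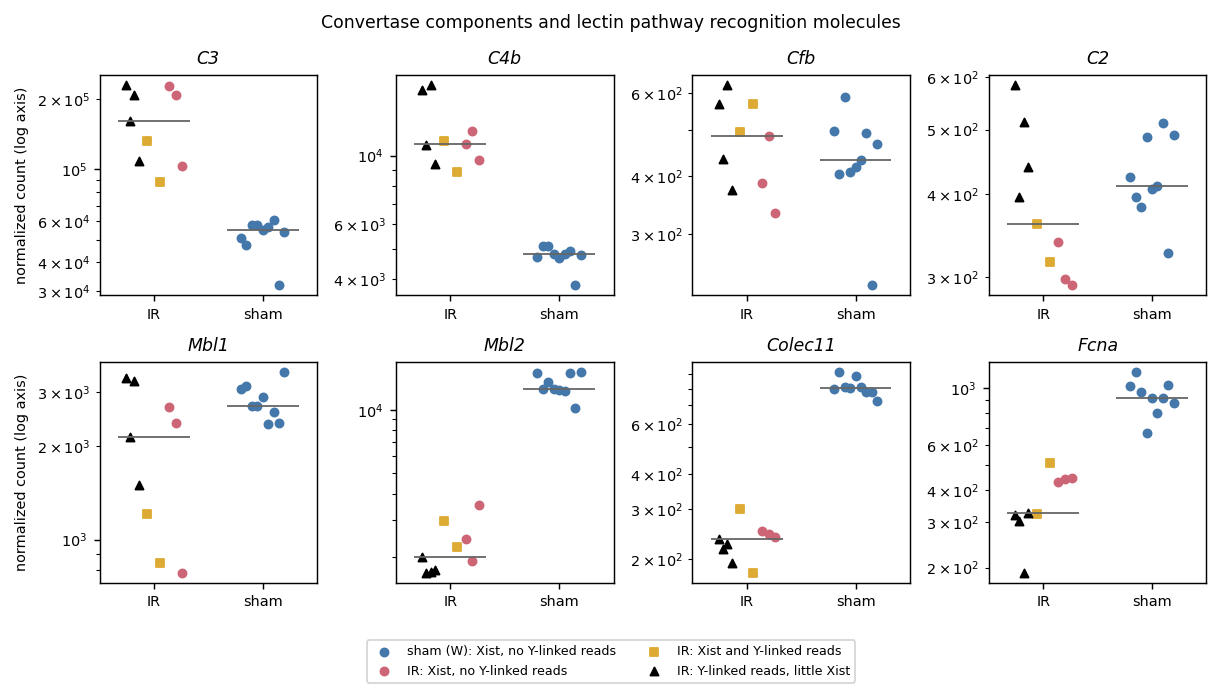
Normalized counts (log axis) of convertase and lectin genes in each library, ischemia-reperfusion on the left and sham on the right of each panel, with symbols for Xist and Y-linked reads and a line at the group median. C3 and C4b lie above all sham libraries and Mbl2, Colec11 and Fcna below them, whereas Cfb and C2 overlap.

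The terminal components build the membrane attack complex, and C6 and C9 were the members that varied most among the injured livers. C6 (ENSMUSG00000022181, chromosome 15, 4727175 to 4814967) had a standard deviation of 1.78 on the log2 scale over the 9 ischemia-reperfusion libraries and 0.44 over the 9 sham libraries. Its counts were 1382 to 2676 in IR1, IR2, IR4 and IR7, 747 and 636 in IR5 and IR8, and 166, 166 and 89.4 in IR3, IR6 and IR9, against 105 to 279 in sham. IR3 and IR6 thus lay within the sham range and IR9 below it, whereas all 6 libraries with Y-linked reads were above every sham library. C6 was called higher over 9 against 9 libraries (1.76, SE 0.55, adjusted p = 0.00642 by limma; 2.45 by edgeR) but not in IR3, IR6 and IR9 (-0.43, SE 0.26, adjusted p = 0.159).

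C9 (ENSMUSG00000022149, chromosome 15, 6445327 to 6498751), the pore-forming subunit, split the same libraries. It had 4192 to 5630 counts in IR1, IR2, IR4 and IR7, 3073 and 2157 in IR5 and IR8, and 969 to 1156 in IR3, IR6 and IR9, against 1844 to 3939 in sham. Libraries with only Y-linked reads were above all sham livers, and those without were below all of them. Over 9 against 9 libraries C9 was not called (-0.05, SE 0.32, adjusted p = 0.889 by limma), whereas in the 3 libraries without Y-linked reads it fell by 1.30 (SE 0.19, adjusted p = 2.51e-05), or 2.47-fold. Only C6, C9 and Clu of the 32 tested members had all 6 libraries with Y-linked reads above the 3 without, and none had them all below. Of all tested genes, 3.73% did not overlap between these libraries, 1.74% with the Y-linked ones above and 1.99% with them below. The part of sex in the levels of C6, C9 and Clu was not tested.

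C8a and C8b, chains of C8 encoded on opposite strands within 110 kb of chromosome 4, were less sharply divided. C8a had 1738 to 10666 counts, median 5512, against 1397 to 4497, median 3135. It was called higher over all libraries (0.83, SE 0.29, adjusted p = 0.0130 by limma) but not in IR3, IR6 and IR9 (0.19, SE 0.33, adjusted p = 0.626). C8b, with 936 to 4676 against 996 to 2974 counts, was called in neither. The C8a/C8b ratio nevertheless differed by 0.58 in both comparisons (exact permutation test, adjusted p = 0.000112 and 0.00960). C8g (ENSMUSG00000015083, chromosome 2, 25498651 to 25501719), the lipocalin chain of C8, went the other way, with 1900 to 4156 counts against 6241 to 10318. All injured livers were below all sham livers: C8g fell by 1.60 (SE 0.15, adjusted p = 5.01e-09 by limma), and its log2 fold change was -1.73 in the 3 libraries without Y-linked reads. The chains of a single complex were thus altered to different extents, with a C8a/C8g ratio 5.39-fold higher after ischemia-reperfusion (exact permutation test, adjusted p = 0.000174). On the log2 scale that difference was 2.43, and 1.92 in IR3, IR6 and IR9 (exact permutation test, adjusted p = 0.0144).

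Hc encodes C5, from which C5a and C5b are cut. It had 3131 to 9821 counts, median 6274, after ischemia-reperfusion and 3574 to 7971, median 7297, in sham. The ranges overlap, and Hc was not called (-0.20, SE 0.21, adjusted p = 0.391 by limma), nor in IR3, IR6 and IR9 (-0.45, adjusted p = 0.105). C3 therefore rose relative to C5: the C3/Hc ratio was higher by 1.77 (exact permutation test, adjusted p = 0.000112) and by 2.17 in the 3 libraries without Y-linked reads (exact permutation test, adjusted p = 0.00960). Vtn and Clu encode vitronectin and clusterin, which bind the forming attack complex in the fluid phase. Vtn had 24829 to 68256 counts against 17727 to 27139 and rose by 0.83 (adjusted p = 0.000361); only IR8 and IR9 lay within the sham range. Clu had 17904 to 41105 counts against 7758 to 10460 and rose by 1.49 (SE 0.14, adjusted p = 8.08e-09), with no overlap. In IR3, IR6 and IR9 the rises were 0.78 for Vtn and 1.01 for Clu.

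**Figure D3:**
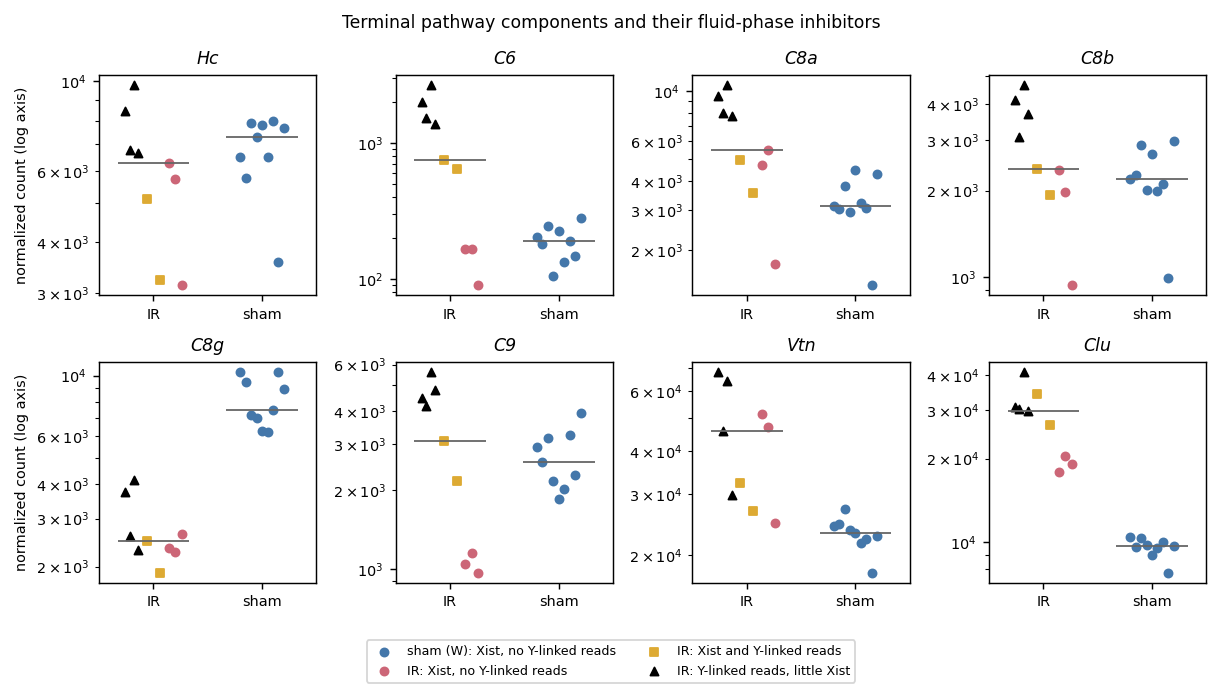
Normalized counts (log axis) of terminal pathway genes and of Vtn and Clu in each library, ischemia-reperfusion left and sham right, with a line at the group median. For C6 and C9 the libraries with Y-linked reads and little Xist (triangles) are highest, those with both (squares) are intermediate and those without Y-linked reads (red circles) are lowest.

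Cfi and C4bp fell and Serping1 was not called. Cfi, the protease that inactivates C3b and C4b, had 3770 to 6352 counts after ischemia-reperfusion and 6201 to 11558 in sham, and fell by 0.81 (SE 0.12, adjusted p = 5.01e-06 by limma; -0.77 in IR3, IR6 and IR9). Library W8, the lowest sham library, overlapped the injured range. C4bp (ENSMUSG00000026405, chromosome 1, 130634773 to 130661632), the C4b-binding cofactor of Cfi, had 2958 to 8653 counts, median 6600, against 7528 to 9868, median 9122. It fell by 0.58 (SE 0.16, adjusted p = 0.00317), and by 0.81 in IR3, IR6 and IR9, all of which lay below the sham range. Serping1 (ENSMUSG00000023224, chromosome 2, 84765387 to 84775444), the C1 inhibitor, had 6738 to 18566 counts, median 11138, against 8998 to 13718, median 11518. Its medians are close while its injured range is wider on both sides, and it was not called (-0.08, SE 0.16, adjusted p = 0.661; -0.24 in IR3, IR6 and IR9, adjusted p = 0.230).

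Both membrane regulators fell. Cd55 (ENSMUSG00000026399, chromosome 1, 130439027 to 130462744) encodes decay-accelerating factor, which breaks up convertases on cell surfaces. It had 38.0 to 135 counts, median 72.6, after ischemia-reperfusion and 232 to 317, median 281, in sham. The ranges are well apart. Cd55 fell by 2.02 (SE 0.19, adjusted p = 6.17e-09 by limma), or 4.07-fold, and its log2 fold change was -1.54 in IR3, IR6 and IR9. Cd59a (ENSMUSG00000032679, chromosome 2, 104095801 to 104115354) encodes a surface inhibitor of the attack complex. It had 226 to 532 counts, median 365, against 706 to 1032, median 857, again without overlap, and fell by 1.31 (SE 0.14, adjusted p = 2.98e-08 by limma; -1.30 in IR3, IR6 and IR9). Cd55 fell more than Cd59a over all libraries (difference -0.72, exact permutation test, adjusted p = 0.00130), but not detectably so in IR3, IR6 and IR9 (-0.24, exact permutation test, adjusted p = 0.0914).

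Properdin, encoded by Cfp on the X chromosome (ENSMUSG00000001128, 20925454 to 20931555), stabilises the alternative convertase and is made by myeloid cells. It had 204 to 442 counts, median 328, after ischemia-reperfusion and 589 to 1129, median 878, in sham. All injured livers were below all sham livers: Cfp fell by 1.47 (SE 0.14, adjusted p = 1.33e-08 by limma), and its log2 fold change was -1.20 in the 3 libraries without Y-linked reads. Factor D, encoded by Cfd, cleaves factor B and is made mainly by fat cells. Cfd was close to the detection limit and untested, with 0.745 to 3.92 counts after ischemia-reperfusion and at most 10.5 in 8 sham libraries and 22.8 in W6. Of the 4 adipocyte markers, Lep was listed at 0 everywhere, and their summed level was highest in W6, at 13.5 counts.

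The anaphylatoxin receptors behaved differently from one another. C5ar1 (ENSMUSG00000049130, chromosome 7, 16246743 to 16259540), the C5a receptor of neutrophils and macrophages, had 59.7 to 416 counts, median 131, after ischemia-reperfusion and 4.44 to 17.6, median 13.6, in sham. The groups are far apart. C5ar1 rose by 3.48 (SE 0.32, adjusted p = 5.83e-09 by limma), or 11.2-fold, the largest change of any tested member, and by 3.05 in IR3, IR6 and IR9. C3ar1 (ENSMUSG00000040552, chromosome 6, 122847138 to 122856161), the C3a receptor, had 35.6 to 100.2 counts, median 57.8, against 38.3 to 64.3, median 58.2. Its medians nearly coincide and it was not called (0.12, SE 0.19, adjusted p = 0.585; 0.09 in IR3, IR6 and IR9, adjusted p = 0.660). C5ar2, the second C5a receptor, which lies next to C5ar1 on chromosome 7, had 14.3 to 35.5 counts against 14.9 to 26.3 and was not called (0.27, SE 0.17, adjusted p = 0.161; 0.31 in IR3, IR6 and IR9, adjusted p = 0.180). The C5ar1/C5ar2 ratio rose by 3.21 and the C3ar1/C5ar1 ratio fell by 3.36 (exact permutation test, adjusted p = 0.000112 for both). The corresponding values in IR3, IR6 and IR9 were 2.75 and -2.96 (exact permutation test, adjusted p = 0.00960 for both).

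**Figure D4:**
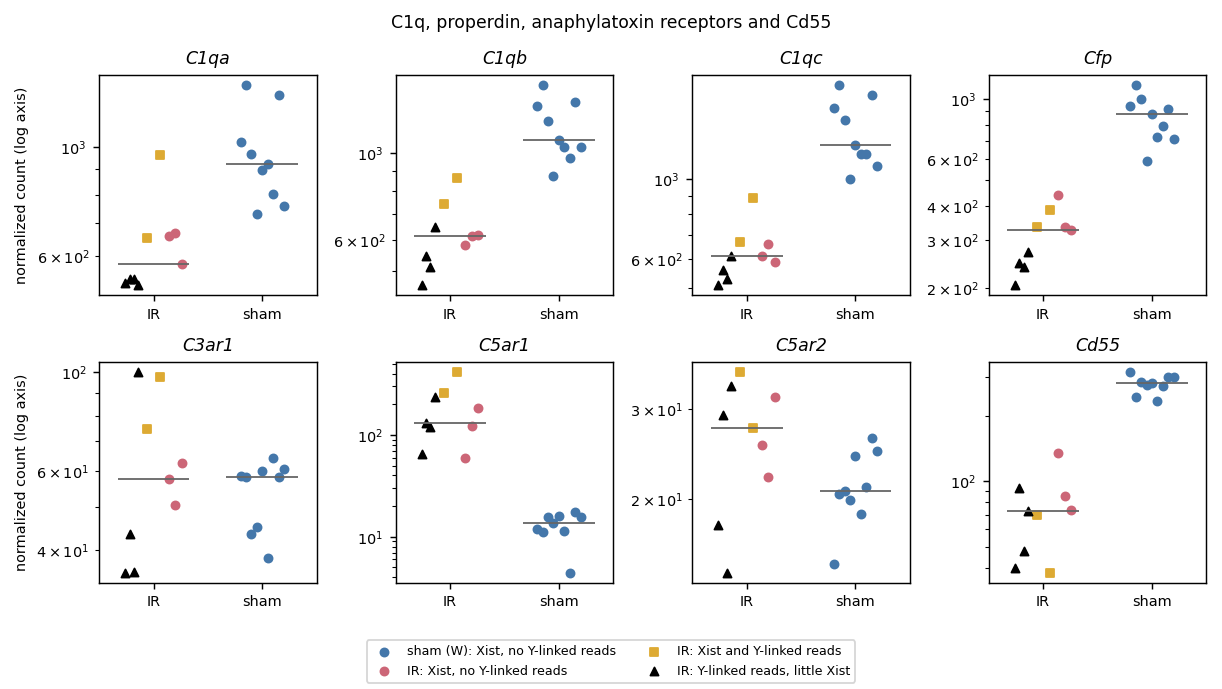
Normalized counts (log axis) of the C1q chains, Cfp, the anaphylatoxin receptors and Cd55 in each library, ischemia-reperfusion left and sham right, with a line at the group median. C5ar1 is above and C1qb, C1qc, Cfp and Cd55 are below all sham libraries, and IR8 is the highest injured library for the C1q chains and C5ar1.

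Markers of Kupffer cells and neutrophils differed between the groups, whereas monocyte and macrophage markers went both ways, 4 of 10 higher and 4 lower. Beside such counts, 76.0% of all tested genes were called, 38.3% higher and 37.7% lower. Of 8 Kupffer cell markers 6 were called lower and 1, Marco, higher, and their summed level was 2412 to 4583 after ischemia-reperfusion and 8118 to 11158 in sham. Clec4f and Slc40a1, the most abundant of them, had log2 fold changes of -1.32 and -2.09. The summed C1q chains per summed Kupffer marker level were 0.405 to 0.794 after ischemia-reperfusion and 0.289 to 0.482 in sham, with medians of 0.513 and 0.368. All 8 tested neutrophil markers of 10 were called higher, with a summed level of 344 to 4365 against 61.1 to 136. Cxcr2, Mmp8, Mmp9, Ngp and Retnlg had sham means of 1.19 to 5.50, under the filter of 10. They were tested only through their level after ischemia-reperfusion, so their direction is not independent of the filter. Csf3r, S100a8 and S100a9 had sham means of 16.9, 26.7 and 32.0. S100a8 and S100a9, calcium-binding proteins abundant in neutrophils, rose by 3.94 and 4.07. C5ar1 and the neutrophil sum were both highest in IR8 and lowest in IR3. The part of these cell types in the changes of C1q, Cfp, Fcna and C5ar1 was not tested.

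In hepatocyte markers, 10 of 12 were called lower and 1, Fgb, higher, with summed levels of 841601 to 1274750 after ischemia-reperfusion and 2186250 to 2627580 in sham. The share called over all tested genes was 76.0%, with 38.3% higher and 37.7% lower, and it applies to every marker list here. Alb fell by 1.80 and Fgb, which encodes a fibrinogen chain, rose by 2.00. Of the 22 members classed as made by hepatocytes, 6 were called higher, as Fgb was, and 8 lower, as Alb was. Among monocyte and macrophage markers 4 of 10 were called higher and 4 lower (summed level 2048 to 7829 against 3114 to 4636), with Lyz2 at -1.81 and Cd14 at 5.30. For sinusoidal endothelium the counts were 2 higher and 4 lower of 7 (2022 to 2815 against 3017 to 4451), with Clec4g at -2.05 and Stab1 at 0.31. For stellate cells and fibroblasts they were 3 and 3 of 6 (2462 to 3787 against 3679 to 4593), with Dcn at -1.09 and Col3a1 at 0.56. All 5 lymphocyte markers were lower (9.55 to 34.7 against 83.4 to 139), with Nkg7 at -1.97 and Trbc2 at -1.77. Each had a mean of at most 7.66 after ischemia-reperfusion and passed the filter of 10 only through its sham level. The direction of these calls is therefore not independent of the filter. All 4 cholangiocyte markers were higher (830 to 14552 against 359 to 722), with Spp1 at 2.98 and Sox9 at 5.22. With IR3, IR6 and IR9 alone the counts of hepatocyte, Kupffer cell, neutrophil and cholangiocyte markers called in each direction were equal to those over all libraries, and 1 call fewer was made in each of the other 4 lists with tested genes. Of all tested genes, 68.4% were called in that comparison, 34.1% higher and 34.2% lower. The part of these cell types in the members' changes was not tested either.

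Of 32 further complement genes, 23 passed the filter and 19 of these were called, 10 higher and 9 lower, a share of 82.6% beside 76.0% of all genes. Itgam, the alpha chain of complement receptor 3, rose by 3.30 (adjusted p = 9.13e-09 by limma), from 2.10 to 14.4 counts in sham to 47.1 to 234. Its sham mean of 8.99 was under the filter of 10, so Itgam was tested only through its level after ischemia-reperfusion. Thbd, which encodes thrombomodulin, rose by 3.23, and Cd93, once described as a C1q receptor, by 2.38, both without overlap. Colec10, which pairs with Colec11 in a lectin complex, fell by 2.75 (adjusted p = 2.70e-12), from 494 to 739 counts to 65.5 to 168. It was also lower in all 6 libraries with Y-linked reads (at most 81.7) than in the 3 without (at least 100.5). Cd59b, the paralogue of Cd59a, fell by 2.44. Vsig4, a Kupffer cell receptor for C3b, fell by 2.31. In IR3, IR6 and IR9 the log2 fold changes were 2.99 for Itgam, 2.80 for Thbd, 2.07 for Cd93, -2.25 for Colec10, -2.61 for Cd59b and -1.87 for Vsig4. C4a rose by 2.04 over all libraries and by 0.95 in IR3, IR6 and IR9. Reads of Cd59a and Cd59b and of C4a and C4b may be divided between close copies.

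Susd4, a membrane complement inhibitor, followed C6 and C9: it had 73.7 to 289 counts in the 6 libraries with Y-linked reads, at most 16.7 in the 3 without and 13.6 to 59.7 in sham. It was called higher over 9 against 9 libraries (1.18, adjusted p = 0.0487 by limma) and lower in IR3, IR6 and IR9 (-0.88, adjusted p = 0.0294). Susd4 was named after its values were seen. C7, the remaining subunit of the attack complex, was below the filter, with 6.01 to 30.2 counts after ischemia-reperfusion and 0 to 5.24 in sham.

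**Figure D5:**
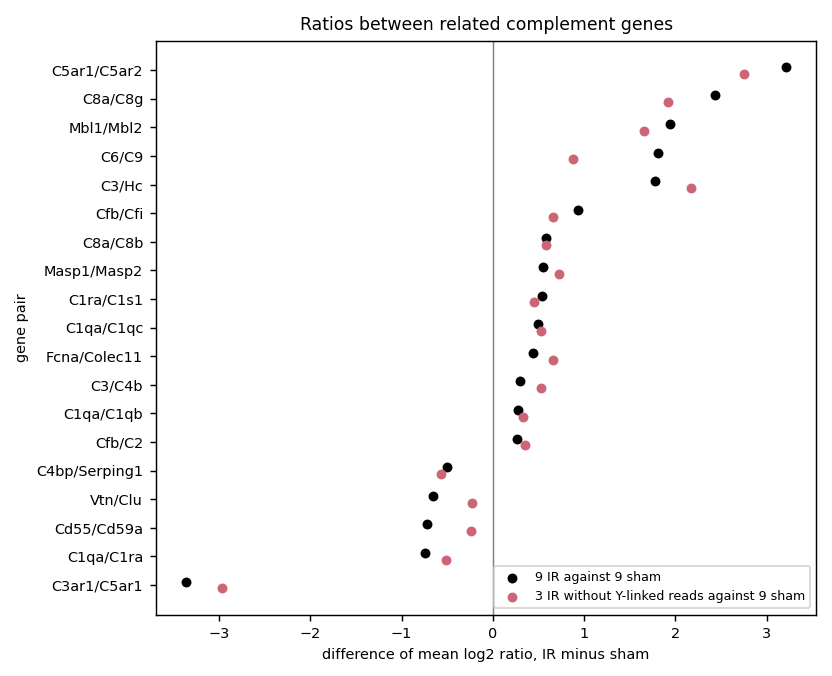
Difference between ischemia-reperfusion and sham in the mean log2 ratio of 19 pairs of related complement genes (y axis), for 9 against 9 libraries (black) and for the 3 ischemia-reperfusion libraries without Y-linked reads against 9 sham libraries (red). C5ar1/C5ar2 is at 3.21 and C3ar1/C5ar1 at -3.36; C6/C9 moves from 1.81 to 0.88.

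Over the 19 ratios, which do not depend on how libraries were scaled apart from the added 1, 18 differed between the groups of 9 at an adjusted p under 0.05 and 15 did so in IR3, IR6 and IR9 against sham. Besides Cfb/C2, those not called in the latter were C1qa/C1ra, Cd55/Cd59a and Vtn/Clu. Ratios of other gene pairs were not tested, so 18 of 19 is not shown to be particular to complement genes. C4bp fell relative to Serping1 by 0.50 (exact permutation test, adjusted p = 0.000426), and Cfb rose relative to Cfi by 0.93 (exact permutation test, adjusted p = 0.000112). In IR3, IR6 and IR9 these differences were -0.57 and 0.66 (exact permutation test, adjusted p = 0.00960 for both). The C3/C4b log2 ratio difference was smaller, at 0.30 (exact permutation test, adjusted p = 0.0340). It was not called when any of IR1, IR2, IR3, IR6, W1, W2 or W8 was left out (0.22 to 0.30, exact permutation test, adjusted p = 0.0512 to 0.0723). The Fcna/Colec11 log2 ratio difference was 0.43 (exact permutation test, adjusted p = 0.0297) and was not called without IR6, IR8 or W4 (0.32 to 0.41, exact permutation test, adjusted p = 0.0514 to 0.0564).

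Variation among libraries was wider after ischemia-reperfusion for 27 of 32 members, as it was for 75.5% of all tested genes. The median standard deviation of log2 values was 0.40 after ischemia-reperfusion and 0.25 in sham. C6 at 1.78 and C9 at 1.02 were the widest, followed by C5ar1 at 0.91 and C8a at 0.81. Genotypes are mixed within both groups, so their share in this spread was not tested.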

How the data were processed

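Per the labels' protocols, total RNA from liver was isolated with a phenol-based reagent and sequenced after preparation with a commercial NEB kit. Trimmomatic 0.33, STAR 2.5.0a and DESeq2 1.14 are named, with the build GRCm38, per the submitters' processing notes. Which program counted reads, with which annotation and strand setting, is not given in the sources used here. The deposited values are a signal of gene counts that the authors divided by a size factor per library, as the table's name says. In each library 100% of values were whole multiples (within 0.01) of one step, so that reads could be recovered. Symbols, coordinates and exon lengths came from GENCODE vM21 (GRCm38).

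Genes with a mean of at least 10 over 18 libraries were tested with limma 3.58.1 (trend) on log2(value + 1), which understates changes of low genes, with Benjamini-Hochberg adjustment over all 12686. Ratios of 19 member pairs were tested with an exact permutation test. Alternatives used edgeR 4.0.16 and DESeq2 1.42.0 on recovered reads, other pseudocounts, filters and scalings, and fewer libraries. Omitting libraries with Y-linked reads was chosen after seeing the data. In data simulated for 9 against 9 libraries and 12686 genes, 99% of log2 changes of 1 and 45% of those of 0.5 were recovered. For 3 against 9 these were 86% and 7%. The simulation changed only a small part of the genes, at a fixed dispersion, whereas 76.0% of genes were called in these data. Its shares therefore do not measure detection here. Members and lists were chosen with earlier results of these data known. All members were accounted for, those with the largest changes in each class and 10 chosen by name with values; up to 8 further complement genes with the largest changes were named, of which 1 is not reported here, and the 2 markers with the highest mean in each list. P-values measure the spread between these libraries, since the labels do not say that each came from a separate animal.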

Additional observations from a re-analysis of the deposited data

Results flagged for a closer look

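Of 66 groups of 9 libraries (33 members by 2 surgeries), 9 held a library set apart from the other 8 by a gap that is large for the group's range, where chance gives about 1 in 20. Sham library W8 accounted for 5 of them, being lowest for C3 (31810 normalized counts, others 47323 to 60546), C4b (3815, others 4671 to 5104), Hc (3574, others 5754 to 7971), C8a (1397, others 2944 to 4497) and C8b (996, others 1998 to 2974). Library IR8 was highest for C1qa (963, others 524 to 671) and C1qc (886, others 508 to 671). C5ar1 was lowest in W7 (4.44, others 11.2 to 17.6), and Cfd was highest in W6 (22.8, others 0.991 to 10.5). Leaving out any of these libraries changed no call of the tested genes among these, although the C3/C4b ratio was not called without W8.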

How the results depend on the processing

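Between 9461 and 9670 genes were called when each library was left out in turn, 4757 to 4869 higher and 4701 to 4804 lower; 7 or 8 members were then called higher and 15 lower, and 16 to 19 ratios differed. C5ar2 became a higher call without IR4 (adjusted p = 0.0371). C9 ranged from -0.20 to 0.12 and Serping1 from -0.18 to 0.0038 in these fits, changing sign without being called. With equal totals 11 members were called higher, and C2 (0.10), Hc (0.042), C9 (0.19) and Serping1 (0.16) changed sign without a call. C9 was also above 0 by edgeR (0.18) and DESeq2 (0.19). Without the 6 libraries with Y-linked reads, C1ra (-0.067), C6 (-0.43), C8b (-0.39) and Cfb (-0.11) changed sign. Without IR5 and IR8, Serping1 (0.014) did, the C3ar1 log2 fold change became -0.038, and Mbl1 was no longer called (-0.42, adjusted p = 0.101). Without a filter, 11909 of 27259 genes were called. Under both pseudocounts, the stricter filter, TMM and upper-quartile scaling, array weights, robust estimation and the exact permutation test, no member changed its direction or call. No paired analysis was possible because the column headers name no sample of the labels. Genotype could not be modelled. With IR3, IR6 and IR9 alone, C2 was called at -0.45 on the log2 scale, whereas Hc at -0.45 was not. A missing call at that size therefore does not show that a gene was unchanged.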
